A study of Mus musculus with 36 samples.

Results

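The genes of the proteasome were followed in mouse forebrain across 2 RNA fractions and 3 vigilance states. A gene was taken when its symbol on the array began with Psma, Psmb, Psmc, Psmd, Psme or Psmg, and its brightest probe set over the 36 arrays stood for it. This gave 48 of 18193 genes, of which 46 were bright enough to be tested among 13924 genes, each of them above the brightness limit in both fractions. Psmb11, the subunit of the thymoproteasome, and Psma8, the testis form of an alpha subunit, were under the limit and were not tested, with means of 4.31 and 3.78 log2 in the bound fraction against 4.52 and 4.60 log2 in the unbound fraction. Psmc3ip and Psme3ip1 carry the prefix because their proteins bind a proteasome protein and are not subunits, which leaves 44 proteasome genes among the 46. The array's probe set for Psme2 also names a near-identical gene and was not used here.

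The arrays came from 18 adult C57BL/6 mice, all heterozygous for Cnp–eGFP-L10a, a transgene that puts a tagged ribosomal protein under the control of the oligodendrocyte gene Cnp. The forebrain of each animal gave a bound fraction (RNA precipitated with the tagged ribosomes) and an unbound fraction (RNA left in the supernatant), so every group holds the transgene and no animal without it was analysed here. The 6 groups of 6 arrays were sleep deprived, waking and sleeping animals in the bound fraction and in the unbound fraction. For sleep deprivation, new objects kept the animals awake over 4 h of the light period, waking animals were killed in the dark period and sleeping animals in the light period. Waking thus also differs in the time of day from both sleep and sleep deprivation. In comparisons with waking the effects of the state and of the hour cannot be told apart. Bound RNA came with ribosomes and unbound RNA was what the supernatant still held, and they were purified with different kits, so these differences and those between cells cannot be told apart. The sex-linked genes set 3 animals apart from the rest (2 waking and 1 sleep deprived), and results without them are given where they bear on a call.

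The proteasome degrades proteins that carry ubiquitin chains. Its 20S core is a stack of rings of alpha subunits (Psma genes) and beta subunits (Psmb genes), and Psmb5, Psmb6 and Psmb7 hold the cutting sites. Interferon induces Psmb8, Psmb9 and Psmb10, which replace these subunits in the immunoproteasome. The 19S cap holds a ring of ATPases (Psmc genes) that unfold the substrate and non-ATPase subunits (Psmd genes) that receive and deubiquitinate it, whereas Psme genes code for other activators of the core and Psmg genes for chaperones of its assembly.

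The promoters of 3 genes on which the results below turn are shown, from 250 bases before to 50 bases after the RefSeq start, in build GRCm38.p6: the immunosubunit gene Psmb9 (chr17:34187281-34187580, minus strand), the gene of the subunit it replaces, Psmb6 (chr11:70525107-70525406, plus strand), and the cap chaperone gene Psmd10 (chrX:140956662-140956961, minus strand). Capitals mark each match, on either strand, to any of 6 motifs: CCAAT (the NF-Y box, ATTGG when read backwards), TGACNNNGC and TGAGNNNGC (forms of the antioxidant response element, which NRF1 and NRF2 bind), GAANNTTC (heat shock element), TTCNNNGAA (STAT site) and the interferon-stimulated response element (GAAA, then NN, then GAAA). The motifs can overlap each other.
Psmb9: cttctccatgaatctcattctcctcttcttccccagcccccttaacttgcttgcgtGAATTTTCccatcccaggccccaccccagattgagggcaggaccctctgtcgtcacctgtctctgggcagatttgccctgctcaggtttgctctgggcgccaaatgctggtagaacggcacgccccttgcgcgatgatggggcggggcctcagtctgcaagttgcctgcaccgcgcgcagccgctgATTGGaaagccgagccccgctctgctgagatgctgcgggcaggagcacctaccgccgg
Psmb6: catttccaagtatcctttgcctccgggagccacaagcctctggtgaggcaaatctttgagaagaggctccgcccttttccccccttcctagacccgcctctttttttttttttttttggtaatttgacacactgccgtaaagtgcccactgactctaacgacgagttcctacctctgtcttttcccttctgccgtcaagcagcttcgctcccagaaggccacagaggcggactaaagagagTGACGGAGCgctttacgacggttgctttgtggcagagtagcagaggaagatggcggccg
Psmd10: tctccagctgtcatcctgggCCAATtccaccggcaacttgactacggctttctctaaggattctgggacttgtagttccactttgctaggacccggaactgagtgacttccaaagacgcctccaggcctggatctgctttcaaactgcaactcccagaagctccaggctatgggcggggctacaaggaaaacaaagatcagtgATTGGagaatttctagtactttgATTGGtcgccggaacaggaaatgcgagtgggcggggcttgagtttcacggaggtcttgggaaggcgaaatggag
The windows of Psmb9, Psmb6 and Psmd10 held 2, 1 and 3 such matches. Of the 48 genes, 40 had a window in the RefSeq table, and the shares that held each motif were 37.5% for CCAAT, 15% for TGACNNNGC, 30% for TGAGNNNGC, 5% for GAANNTTC, 7.5% for TTCNNNGAA and 12.5% for the interferon-stimulated response element. Over all 27025 windows of the same length the shares were 37.92%, 12.47%, 17.47%, 7.95%, 8.47% and 3.49% in that order. The 5 genes with the last motif were Psmb3, Psmd4, Psmd9, Psme1 and Psmg4. A match describes letters and says nothing about binding.

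Markers of cell types show what each fraction held. All 7 oligodendrocyte markers measured were higher in the bound than in the unbound fraction, and all 8 neuron, 7 astrocyte and 7 microglia markers and both endothelium markers tested were lower (limma, adjusted p below 0.05). The summed oligodendrocyte signal was 15.65 to 15.87 log2 in the bound arrays and 13.57 to 13.96 log2 in the unbound arrays, so oligodendrocyte RNA was measured in both. The summed signals were 14.70 to 15.02 log2 in bound and 15.57 to 15.74 log2 in unbound arrays for neurons, 11.75 to 12.50 and 13.68 to 14.22 for astrocytes, 7.87 to 9.20 and 10.55 to 11.61 for microglia, and 6.42 to 7.41 and 7.41 to 8.29 for endothelium. The mean signal of an array averaged 5.91, 5.93 and 5.92 log2 in bound arrays of sleep deprivation, waking and sleep, against 6.41, 6.34 and 6.40 log2 in unbound arrays. The SD of the array means within a group of 6 was 0.0029 to 0.0099 log2, so arrays of a group were nearly equal, and unbound waking lay below the other unbound groups by more than that spread. No source used here states whether the groups were normalized together, and a state change as deposited also holds any difference in scale between its groups. The lower mean of the unbound waking arrays touches both comparisons with waking in that fraction, and their calls are therefore also given relative to the median gene.

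Most core and cap genes were higher in the bound fraction relative to the median gene, and the immunosubunits and the activators Psme3 and Psme1 were the lowest of the family. In the comparison of the bound with the unbound fraction, 36 of 46 genes were called, 23 higher and 13 lower, where 83.8% of all genes tested were called (25.6% higher and 58.2% lower). A gene was called at an adjusted p below 0.05 (limma on the 18 per-animal differences, Benjamini-Hochberg over all genes tested). The median change of the 46 genes was 0.16 log2, against −0.35 log2 for the median gene, and 37 of 46 lay above the median gene. Their spread was narrow, with a standard deviation of 0.46 log2 against 1.13 log2 over all genes, and 2 of them differed at least 2-fold where 36% of all genes did. Less RNA of a gene in a fraction can come from fewer cells of a type or from less RNA per cell, and these cannot be told apart in such bulk samples.

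The count of genes on either side depends on what level is set to 0. With each array centred on its median tested gene (an alternative chosen after the values were seen), 42 genes were called, 36 higher and 6 lower, where 80.9% of all genes were called, 40.7% higher and 40.2% lower. With each array centred on the median of all its probe sets, which puts the median tested gene at 0.35 log2, 40 were higher and 2 lower (85.6% of all genes called, 57.1% higher and 28.6% lower). Quantile normalization of the 36 arrays together gave 28 higher and 9 lower genes (82.7% of all genes called, 44.5% higher and 38.3% lower). With that quantile normalization the members' median was 0.26 log2 against 0.08 log2 for the median gene, and 29 of 46 lay above it. Without the 3 animals set apart, 20 were higher and 14 lower as deposited, and the members' median stood 0.48 log2 above the median gene. The share of all genes called without these animals is not given here, so the 2 counts show only how far the calls moved. Proteasome genes are bright on these arrays, with 29 of the 46 among the 2785 brightest genes. Among all of those 2785 genes the median change was −0.11 log2, and among the 29 proteasome genes there it was 0.17 log2. The part of brightness in the family's position was not tested beyond these values.

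**Figure D1:**
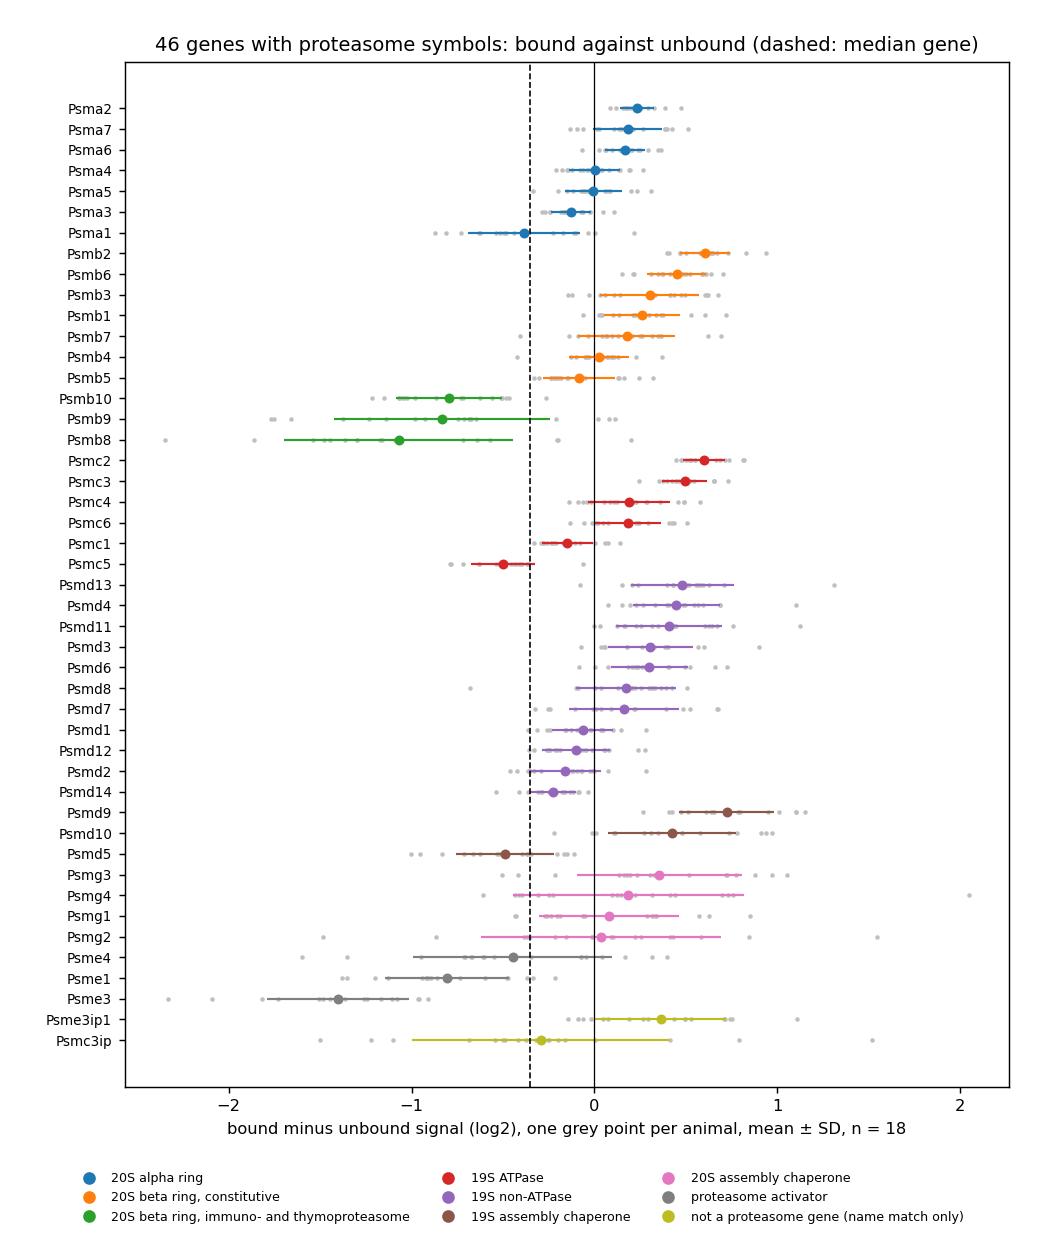
Bound minus unbound signal (log2, horizontal axis) of the 46 genes, grouped by role; grey points are the 18 animals, coloured points and bars are mean ± SD, and the dashed line is the median gene at −0.35. Core and cap genes lie mostly to the right of the dashed line, and Psme3, Psmb8, Psmb9, Psme1 and Psmb10 are the 5 genes farthest to the left.

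Of the 7 constitutive beta subunit genes of the core, 5 rose in the bound fraction and none fell, with a median of 0.26 log2, and of the 7 alpha subunit genes 3 rose and 2 fell, with a median of 0.0019 log2. Of all genes, 25.6% were higher and 58.2% lower. With arrays centred on the median gene, all 7 of these beta genes and 6 of the 7 alpha genes were called higher and none lower. That centring gave 40.7% of all genes higher and 40.2% lower. The difference between the rings was not tested. Psmb2, a beta subunit without a cutting site, had a lowest, median and highest value of 12.28, 12.56 and 12.82 log2 in the 18 bound arrays, against 11.62, 11.96 and 12.23 log2 in the 18 unbound arrays. Every bound value of Psmb2 was above every unbound one. Its change of 0.61 ± 0.04 log2 (SE, adjusted p = 8.21e-11, limma) is 1.52-fold.

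The 3 genes of the constitutive cutting sites did not move as 1 group. Psmb6, the caspase-like site, ranged from 11.21 over a median of 11.58 to 11.80 log2 in bound arrays, against 10.83, 11.14 and 11.38 log2 in unbound arrays. It rose by 0.45 ± 0.05 log2 in the bound fraction and was higher there in all 18 animals (limma adjusted p = 3.97e-08). Psmb7, the trypsin-like site, rose by 0.18 ± 0.07 log2 (adjusted p = 0.0189), a call that was lost without the 3 animals set apart (0.15 log2, adjusted p = 0.0640). Psmb5, the chymotrypsin-like site, differed by −0.09 log2 with a 95% interval of −0.18 to 0.01 (adjusted p = 0.0938). Relative to the median gene, Psmb5 stood 0.27 log2 higher.

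The genes of the matching immunosubunits were all lower in the bound fraction, where 58.2% of all genes were called lower. Psmb10, the immunosubunit that replaces Psmb7, had 8.39, 8.97 and 9.42 log2 as lowest, median and highest bound values, against 9.30, 9.70 and 10.30 log2 in unbound arrays. It fell by 0.80 log2 (SE 0.07, adjusted p = 4.70e-09) and was lower in the bound array of all 18 animals, although the highest bound value lay above the lowest unbound one. Psmb8, which replaces Psmb5, averaged 5.48 ± 0.43 log2 in bound and 6.55 ± 0.42 log2 in unbound arrays (SD, n = 18 each), and was lower in the bound array of 17 animals (−1.07 ± 0.15 log2, SE, adjusted p = 1.69e-06). Psmb9, which replaces Psmb6, averaged 5.10 ± 0.25 log2 in bound and 5.93 ± 0.52 log2 in unbound arrays, and was lower in the bound array of 15 animals (−0.83 ± 0.09 log2, adjusted p = 9.52e-08). Psmb8 and Psmb9 are dim, and their means lie not far above the brightness limit of 4.47 log2 for bound and 5.18 log2 for unbound arrays. All 3 stayed lower with arrays centred on the median gene (Psmb8 −0.71, Psmb9 −0.47 and Psmb10 −0.43 log2), and of the 3 only Psmb8 was called lower with arrays centred on all probe sets. The value of Psmb9 pools states that differ. It was −1.42 log2 in sleep and −0.72 log2 in waking, where the median gene was at −0.38 and −0.30 log2. In sleep deprivation it was −0.35 log2, which is not below the median gene at −0.38 log2.

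The markers of microglia, astrocytes, neurons and endothelium were lower in the bound fraction along with these 3 genes, with median changes of −2.57, −2.12, −1.39 and −1.14 log2, and the part of those cells in the result was not tested. Other genes of antigen presentation, which interferon also induces, were split between the fractions. Of 9 tested, 3 were higher in the bound fraction and 4 lower, where 25.6% of all genes were higher and 58.2% lower. Their median was −0.43 log2, against −0.35 log2 for the median gene. The class I heavy chains H2-D1 and H2-K1 averaged 8.18 and 8.14 log2 in bound arrays, against 6.92 and 7.03 log2 in unbound arrays, rises of 1.26 ± 0.11 and 1.11 ± 0.11 log2. The peptide transporter genes Tap1 and Tap2 fell by 0.56 and 0.58 log2 in the bound fraction. Of the genes named here, the 3 immunosubunit genes, Tap1 and Tap2 were lower in the bound fraction, and H2-D1 and H2-K1 were higher.

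In the 19S cap, 4 of 6 ATPase genes were higher in the bound fraction and 2 lower, or 5 higher and 1 lower with arrays centred on the median gene. Of all genes, 25.6% were higher and 58.2% lower as deposited, and 40.7% and 40.2% with that centring. Psmc2 had a lowest, median and highest signal of 11.80, 11.94 and 12.13 log2 in bound arrays, against 11.18, 11.35 and 11.60 log2 in unbound arrays. The groups did not overlap, and the change was 0.60 ± 0.04 log2 (limma adjusted p = 1.29e-11). Psmc3 had 11.42, 11.56 and 11.78 log2 in bound arrays, against 10.86, 11.05 and 11.28 log2 in unbound arrays, again without overlap (0.49 ± 0.04 log2). Psmc5 went the other way in all 18 animals, with a mean of 10.58 ± 0.11 log2 in bound and 11.08 ± 0.15 log2 in unbound arrays (−0.50 ± 0.05 log2, SE, adjusted p = 6.60e-09). Since the 6 ATPases form 1 ring, the range from −0.50 to 0.60 log2 is the spread of genes whose proteins are needed in equal numbers.

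Of the 11 non-ATPase genes of the cap, 7 were higher in the bound fraction and 2 lower, and all 11 were higher with arrays centred on the median gene. The shares of all genes were 25.6% higher and 58.2% lower as deposited, and 40.7% higher with that centring. Psmd4, a ubiquitin receptor, averaged 11.79 ± 0.12 log2 in bound and 11.34 ± 0.22 log2 in unbound arrays (SD, n = 18 each) and was higher in the bound array of every animal (0.45 ± 0.06 log2, SE). Psmd13 averaged 9.90 ± 0.20 log2 in bound and 9.42 ± 0.22 log2 in unbound arrays (0.48 ± 0.06 log2). Psmd14, a deubiquitinase of the cap, fell by 0.23 log2 in the bound fraction but stood 0.13 log2 above the median gene.

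The chaperones that assemble the cap diverged. Psmd9 (p27 in the human nomenclature) had 8.82, 9.10 and 9.76 log2 as lowest, median and highest bound values, against 8.19, 8.51 and 8.92 log2 in unbound arrays. It was the gene with the largest rise among the 46, 0.72 ± 0.06 log2 or 1.65-fold, and rose in all 18 animals. Psmd10 (gankyrin) rose by 0.43 ± 0.05 log2 over the 3 states, with a spread between states that is described below. Psmd5 fell by 0.49 log2 in the bound fraction (SE 0.06, 18 of 18 animals), and this call was lost with arrays centred on the median gene (−0.13 log2, adjusted p = 0.0560). Of the 4 genes for chaperones of the 20S core, Psmg3 was called as deposited (0.36 ± 0.10 log2), and all 4 were called higher with arrays centred on the median gene. With that centring 40.7% of all genes were higher.

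All 3 activator genes tested were lower in the bound fraction, where 58.2% of all genes were called lower. Psme3, which codes for the nuclear activator PA28gamma, showed the largest change of the 46 genes. Its lowest, median and highest values were 10.05, 10.79 and 11.67 log2 in bound arrays, against 11.90, 12.25 and 12.74 log2 in unbound arrays. The groups did not overlap, and the change was −1.40 ± 0.09 log2 or 0.378-fold (SE, adjusted p = 2.21e-11). Psme1, a subunit of the interferon-induced activator PA28, had 8.73, 9.27 and 9.63 log2 in bound arrays, against 9.70, 9.93 and 10.28 log2 in unbound arrays, also without overlap (−0.81 ± 0.08 log2, adjusted p = 1.42e-08). Psme4, the activator PA200, averaged 7.97 ± 0.39 log2 in bound and 8.41 ± 0.37 log2 in unbound arrays (−0.45 ± 0.13 log2, adjusted p = 0.00318), which was −0.08 log2 and not called with arrays centred on the median gene. With arrays centred on the median of all probe sets, Psme3 remained lower at −0.70 log2 and Psme1 was not called (−0.10 log2).

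Other probe sets of the same genes serve as a second look at these changes. Among 26 genes with several probe sets, 19 had at least 1 other that passed the brightness limit, 31 in all. Of the 26 such probe sets on called genes, 14 pointed the same way as the brightest and 12 the opposite way. Of the 12 opposite ones, 9 had a bound mean below 7 log2, against 1 of the 14 others. The other bright probe set of Psme3 gave −1.11 log2, that of Psmc2 gave 0.38 log2 and that of Psmd13 gave 0.60 log2. Psmd9 had another probe set with a bound mean of 5.34 log2, which gave −0.49 log2, so its rise rests on 1 probe set.

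**Figure D2:**
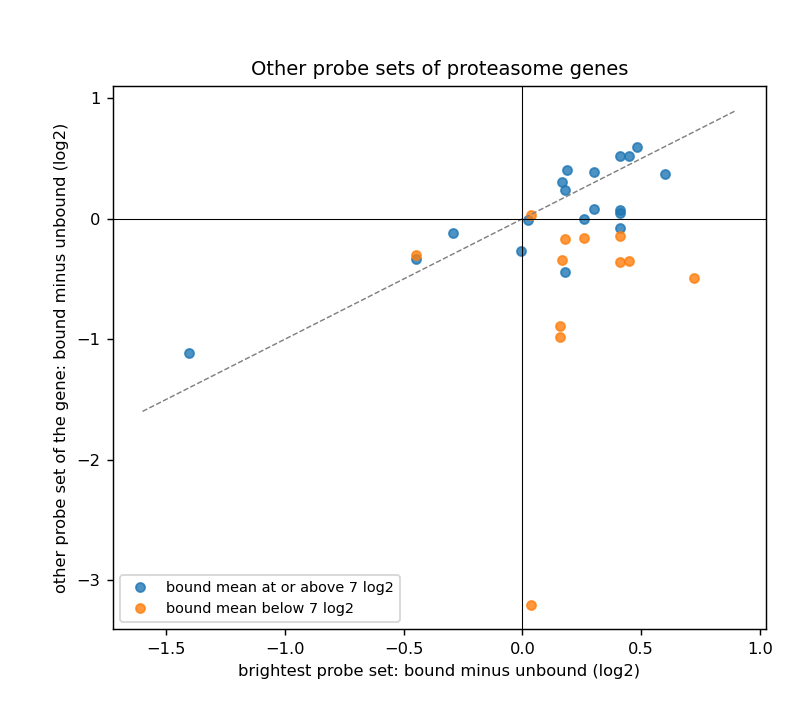
Bound minus unbound change (log2) of other probe sets that passed the brightness limit (vertical axis) against that of the brightest probe set of the same gene (horizontal axis), with the dashed line marking equal values. Orange points, with a bound mean below 7 log2, make up 9 of the 12 probe sets of called genes that pointed the opposite way, and the lowest point is a probe set of Psmg2 at −3.20.

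The standing of the family within each array separated the fractions more than the states. The median signal of the 46 genes minus that of the median gene was 2.96 ± 0.09, 2.95 ± 0.03 and 2.87 ± 0.07 log2 in bound arrays of sleep deprivation, waking and sleep (SD, n = 6 each), against 2.64 ± 0.07, 2.58 ± 0.06 and 2.59 ± 0.07 log2 in unbound arrays. Every bound array lay at 2.78 or higher and every unbound array at 2.75 or lower. The offset itself sets different probes against each other and has no meaning beyond its differences between arrays.

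**Figure D3:**
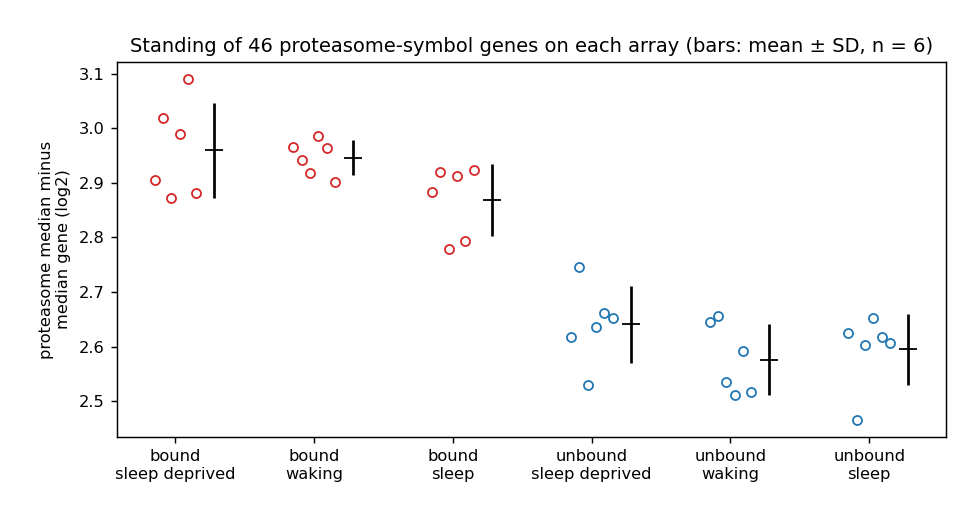
Median signal of the 46 genes minus the median tested gene on each array (log2, vertical axis), by fraction and state; circles are arrays and bars are mean ± SD of 6. Bound arrays lie between 2.78 and 3.09, unbound arrays between 2.47 and 2.75, and the states of a fraction overlap.

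Within the bound fraction, few proteasome genes changed with state. In sleep deprivation against sleep, 2 of 46 genes were called, both lower, where 14.4% of all genes were called and 6.87% were lower. In waking against sleep none was called, where 9.47% of all genes were (limma; 7 of 46 at an unadjusted p below 0.05, against 24.6% of all genes). In sleep deprivation against waking none was called, where 5.01% of all genes were (5 of 46 at an unadjusted p below 0.05, against 19.9%). The median change of the 46 genes was 0.0079 log2 in sleep deprivation against sleep and −0.0014 log2 in waking against sleep, with a median standard error of 0.10 log2. For 36 of the 46 genes in both comparisons, the 95% interval of the change lay within 0.5 log2 of 0, as it did for 37% and 38.5% of all genes.

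Psmd10 showed the clearest change. Gankyrin, its protein, escorts the ATPase Psmc4 during assembly of the cap. Its lowest, median and highest bound values were 9.26, 9.54 and 9.83 log2 in sleep deprivation, 9.60, 9.84 and 10.13 log2 in waking and 9.93, 10.07 and 10.46 log2 in sleep. The sleep deprived values all lay below the sleep values, and the waking values overlapped with both. It fell by 0.56 log2 in sleep deprivation against sleep (SE 0.12, 0.678-fold, adjusted p = 0.00505), and by 0.57 log2 without the 3 animals set apart (adjusted p = 0.0119). In the same comparison 3 of the 7 oligodendrocyte markers rose and 1 fell (median 0.05 log2), and their part in the change was not tested. In the unbound fraction it had 9.44, 9.47 and 9.72 log2 in sleep deprivation, against 9.03, 9.25 and 9.72 log2 in sleep, and was not called.

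The change of Psmd10 differed between the fractions. Its bound minus unbound difference was 0.04 ± 0.16 log2 in sleep deprivation, 0.45 ± 0.09 log2 in waking and 0.78 ± 0.23 log2 in sleep (SD, n = 6 each). The difference between the sleep deprivation and the sleep changes of the fractions was −0.74 ± 0.11 log2 (SE, limma adjusted p = 0.000848), where 6.51% of all genes were called. Between sleep deprivation and waking it was −0.41 ± 0.11 log2 at adjusted p = 0.0491, a call that was lost in 8 of the alternatives, the 3 animals left out among them, which gave −0.28 to −0.42 log2. Psmd10 has 1 probe set on the array.

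**Figure D4:**
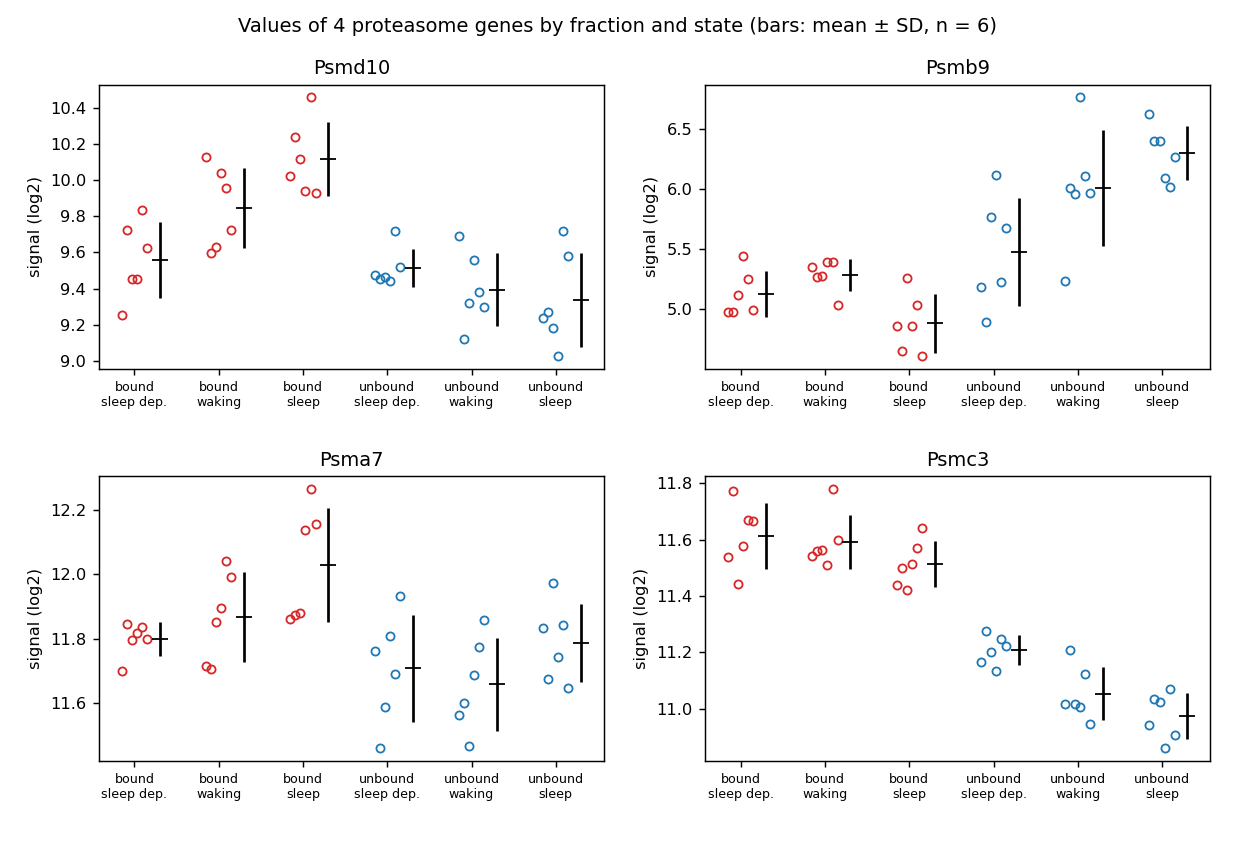
Signal (log2, vertical axes) of Psmd10, Psmb9, Psma7 and Psmc3 in each of the 36 arrays by fraction and state; circles are arrays and bars are mean ± SD of 6. Bound Psmd10 lies at 9.26 to 9.83 in sleep deprivation, below the 9.93 to 10.46 of sleep, and unbound Psmb9 lies at 4.90 to 6.12 in sleep deprivation against 6.02 to 6.63 in sleep.

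The other gene called in the bound fraction was Psma7, an alpha subunit. It had 11.70, 11.81 and 11.85 log2 in sleep deprivation, against 11.86, 12.01 and 12.26 log2 in sleep. The groups touched without overlapping, and the change was −0.23 ± 0.08 log2 (SE, adjusted p = 0.0498). The call was lost in 5 alternatives, and the other probe set of Psma7 gave −0.08 log2. Without the 3 animals set apart Psma7 was not called (−0.23 log2, adjusted p = 0.0781), while Psmg2, a chaperone of the core, was (−0.68 log2, adjusted p = 0.0291). The immunosubunits were not called there, with changes of 0.31 ± 0.24 log2 for Psmb8, 0.25 ± 0.13 for Psmb9 and 0.05 ± 0.15 for Psmb10 in sleep deprivation against sleep. In waking against sleep, Psmb9 differed by 0.41 ± 0.13 log2 at a limma adjusted p of 0.0585, with 5.04, 5.31 and 5.40 log2 in waking, against 4.61, 4.86 and 5.26 log2 in sleep. It was called without the brightness filter (0.0384), with the mean of probe sets (0.0350) and without the intensity trend (0.0358).

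In the unbound fraction, 2 of 46 genes were called in sleep deprivation against sleep, where 7.82% of all genes were. Psmc3 had 11.13, 11.21 and 11.28 log2 in sleep deprivation, against 10.86, 10.98 and 11.07 log2 in sleep. The groups did not overlap, and the rise was 0.23 ± 0.06 log2 (SE, 1.18-fold, adjusted p = 0.0127). Psmb9 had 4.90, 5.45 and 6.12 log2 in sleep deprivation, 5.24, 5.99 and 6.77 log2 in waking and 6.02, 6.34 and 6.63 log2 in sleep. Of the sleep deprived values, 5 lay below all sleep values and 1 lay among them, and Psmb9 fell by 0.82 log2 (SE 0.22, 0.565-fold, adjusted p = 0.0279). Without the 3 animals set apart the fall was 0.86 log2 (adjusted p = 0.0463). Of the 7 microglia markers none was called there, with a median change of −0.06 log2, and the part of microglia in the fall was not tested.

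This change of Psmb9 also differed between the fractions. Its bound minus unbound difference was −0.35 ± 0.36 log2 in sleep deprivation and −1.42 ± 0.34 log2 in sleep (SD, n = 6 each), a contrast of 1.07 ± 0.23 log2 (SE, limma adjusted p = 0.00740). Bound Psmb9 had 4.98, 5.05 and 5.45 log2 in sleep deprivation, against 4.61, 4.86 and 5.26 log2 in sleep, which is close to the brightness limit. Psmb9 lay above the limit of the stricter brightness filter in neither fraction, so that its calls could not be checked there. Psmb8 and Psmb10 in the unbound fraction differed by 0.40 ± 0.23 and 0.22 ± 0.14 log2 between sleep deprivation and sleep and were not called. Tap1, the neighbour of Psmb9 in the genome (chosen after its values were seen), differed by 0.03 ± 0.12 log2.

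Waking against sleep in the unbound fraction gave 4 called genes, all lower, where 7.21% of all genes were called and 5.72% were lower. Psme3ip1, which is no subunit, had 8.88, 9.13 and 9.45 log2 in waking, against 9.36, 9.62 and 10.02 log2 in sleep (−0.50 ± 0.11 log2, adjusted p = 0.0115). The cap subunit Psmd6 had 10.06, 10.29 and 10.45 log2 in waking, against 10.48, 10.52 and 10.68 log2 in sleep, and fell by 0.28 log2. Psmd14 and Psma2 fell by 0.16 and 0.14 log2. The median gene of this comparison was at −0.09 log2, and with arrays centred on it 3 genes were called (4.52% of all genes): Psme3ip1 lower at −0.41 log2 and the ATPase genes Psmc1 and Psmc2 higher at 0.14 and 0.22 log2. As deposited, the probe set used for Psmc2 gave 0.13 log2 and its other bright probe set gave −0.03 log2. The size of the Psmc2 rise thus rests on 1 probe set. The calls of Psmd6, Psmd14 and Psma2 thus did not hold relative to the median gene.

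Sleep deprivation against waking in the unbound fraction gave 7 called genes, all higher, where 9.94% of all genes were called and 8.45% were higher. Psme3ip1 had 9.64, 9.78 and 9.84 log2 in sleep deprivation, against 8.88, 9.13 and 9.45 log2 in waking (0.63 ± 0.11 log2, adjusted p = 0.00222). Psmb5 had 10.71, 10.79 and 10.91 log2 in sleep deprivation, against 10.46, 10.52 and 10.63 log2 in waking, and Psme3 had 12.27, 12.38 and 12.74 against 11.92, 12.13 and 12.20 log2. The groups overlapped in none of these 3 genes, and Psme3 and Psmb5 rose by 0.34 and 0.27 log2. The other bright probe set of Psme3 gave −0.12 log2 in this comparison, so this rise rests on 1 probe set. Psma5, Psmb4, Psma2 and Psmd14 rose by 0.17 to 0.23 log2. The median gene was at 0.11 log2 here, and with arrays centred on it 1 gene was called, Psme3ip1 at 0.52 log2 (3.91% of all genes). Both unbound comparisons with waking share the waking arrays, whose mean was the lowest of that fraction. Without the 3 animals set apart, 1 gene was called in waking against sleep and 2 in sleep deprivation against waking. The share of all genes called without these animals is not given here.

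**Figure D5:**
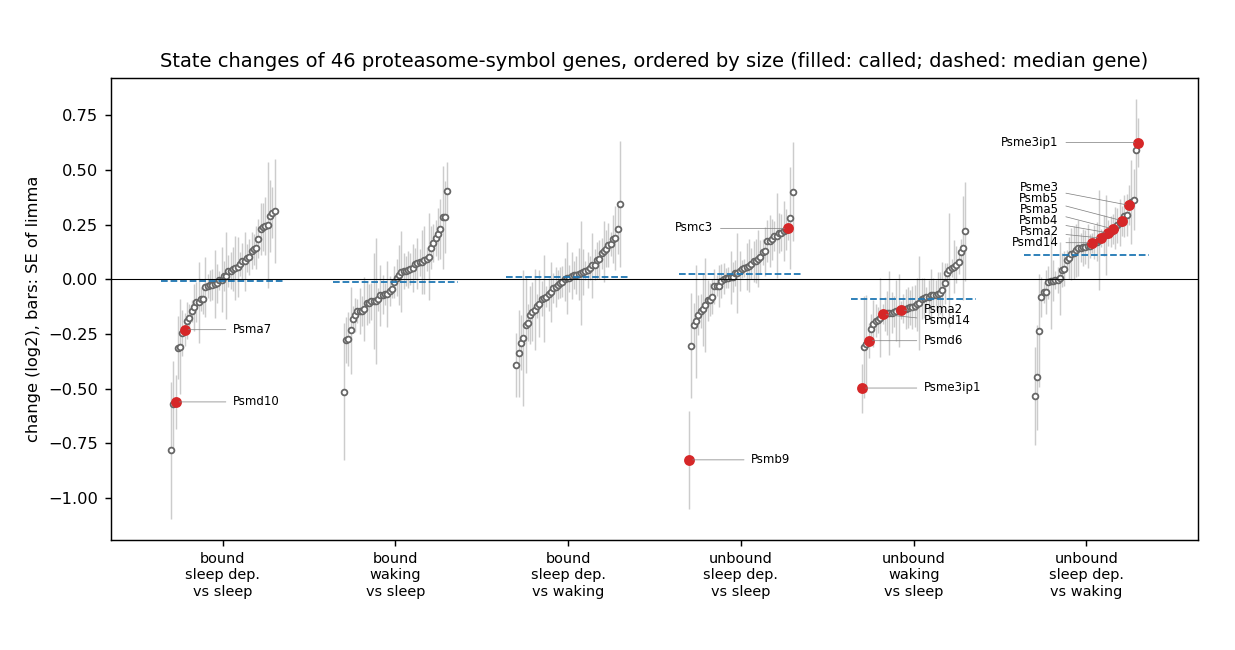
Change (log2, vertical axis) of each of the 46 genes in 3 state comparisons of the bound and 3 of the unbound fraction, ordered by size within a comparison; red points were called, bars are the SE of limma and dashed lines mark the median gene. Bound comparisons hold 2 called genes in all, both in sleep deprivation against sleep, and the 7 called genes of unbound sleep deprivation against waking stand above a median gene at 0.11.

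Psme3ip1 was also the 1 gene of the 46 whose waking change differed between the fractions, where 5.59% of all genes did. Its bound minus unbound difference was 0.68 ± 0.28 log2 in waking and 0.11 ± 0.25 log2 in sleep (SD, n = 6 each), a contrast of 0.57 ± 0.16 log2 (SE, limma adjusted p = 0.0466). The call was lost under either centring, either quantile normalization, the stricter filter and without the intensity trend, with 0.47 to 0.57 log2 and adjusted p from 0.0519 to 0.118. Between sleep deprivation and waking, 4.82% of all genes differed in this way, and of the 46 genes Psmd10 did, as given above.

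The genes of the family varied little together from array to array. Over the 18 arrays of a fraction, with the group means taken out, the median correlation of the 1035 pairs of genes was 0.077 in bound and 0.064 in unbound arrays, against −0.0037 and 0.0071 between these genes and all others. This is a description of arrays that share their normalization.

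Partners of the proteasome give the setting of these values. Of 9 genes for shuttle factors and p97 cofactors, which carry ubiquitinated proteins to the proteasome, 4 rose in the bound fraction in sleep deprivation against sleep and none fell. Ubqln1 averaged 12.07 log2 in sleep deprivation and 11.67 log2 in sleep (0.41 ± 0.08 log2, adjusted p = 0.0013), and Ubqln4, Rad23b and Nploc4 rose by 0.38, 0.34 and 0.33 log2. Of all genes, 7.53% were higher in that comparison, and the median of the 9 was −0.04 log2, against −0.01 log2 for the median gene. In bound waking against sleep, 3 of the 9 rose, Ubqln1 by 0.28, Nploc4 by 0.28 and Rad23b by 0.25 log2, where 4.68% of all genes were higher. These 2 comparisons share the sleep arrays, and no proteasome gene was called higher in either as deposited. With the mean of a gene's probe sets, Psmc4 and Psmd11 were called higher in sleep deprivation (0.21 and 0.33 log2, limma adjusted p = 0.0310 and 0.0258). In waking, Psmb9 was called higher in that setting (0.41 log2, adjusted p = 0.0350). Between the fractions 4 of the 9 were higher and 4 lower in bound arrays, where 25.6% of all genes were higher and 58.2% lower. Vcp was among the first by 0.45 log2 and Ubqln4 among the second by −1.06 log2. In the unbound fraction Ubqln4 rose in sleep deprivation against sleep (0.27 log2), and Ubqln4, Nploc4 and Vcp rose against waking (0.29, 0.30 and 0.27 log2). The calls against waking are given as deposited only, where the median gene was at 0.11 log2 and 8.45% of all genes were higher.

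Of 11 genes for factors that sit on the proteasome or help to build it, 1 was higher in the bound fraction and 5 lower, where 25.6% of all genes were higher and 58.2% lower. The median of the 11 was −0.06 log2, against −0.35 log2 for the median gene. Usp14, a deubiquitinase of the cap, averaged 8.84 log2 in bound and 10.09 log2 in unbound arrays (−1.25 ± 0.10 log2), and Uchl5, another such enzyme, fell by 0.63 log2. Uchl5 rose by 0.31 ± 0.08 log2 in bound sleep deprivation against sleep (adjusted p = 0.0107). Pomp, the maturation factor of the core, rose in unbound sleep deprivation by 0.16 log2 against sleep and by 0.19 log2 against waking. The median gene was at 0.02 and 0.11 log2 in these comparisons, and both calls are given as deposited only. In the list of ubiquitin genes and E1, 1 gene was tested and called in no comparison.

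Among 9 genes for factors that control proteasome transcription, 4 were higher in the bound fraction and 3 lower, where 25.6% of all genes were higher and 58.2% lower. Their median was 0.11 log2, against −0.35 log2 for the median gene. Nfe2l1 (NRF1), which raises proteasome genes when the proteasome is inhibited, averaged 9.03 log2 in bound and 10.60 log2 in unbound arrays (−1.57 ± 0.06 log2), and its relative Nfe2l2 (NRF2) averaged 8.82 and 6.80 log2 (2.02 ± 0.17 log2). Stat3 averaged 10.15 log2 in bound and 8.60 log2 in unbound arrays (1.55 ± 0.10 log2). It fell in bound sleep deprivation by 0.60 log2 against sleep and by 0.74 log2 against waking.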

How the data were processed

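The authors deposited 1 log2 signal per probe set for each of 36 expression arrays. The submitters' processing notes name RMA, with a version not given in the sources used here. These values entered the tests without further normalization. Whether the authors normalized all arrays or each group together is not stated, and array means had an SD of 0.0029 to 0.0099 log2 within groups. The array has 45101 probe sets, of which 34945 name a single gene, 932 more than 1 and 9160 no gene, and 64 are controls. Entrez identifiers tied 34741 of them to RefSeq, with 0 symbols changed. The probe set with the highest mean stood for a gene. The limit for testing was a mean at or above 4.47 log2 in bound or 5.18 log2 in unbound arrays, the 40th percentile over probe sets in that fraction.

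The limma package (3.58.1, under R 4.3.3) fitted the models, with a trend of variance on intensity and Benjamini-Hochberg adjustment over 13924 genes. State comparisons came from a group-means model of the 18 arrays of a fraction. Bound against unbound, and differences of a state change between fractions, were tested on the 18 per-animal differences, since the labels number both arrays of an animal alike (animal block). Deviations of an animal's 2 arrays from their group means correlated by −0.0032 to 0.0848, and 8 of 18 arrays correlated best with their own partner. The code was tested on simulated data. The labels call the animals of a group biological replicates, and the number of arrays limits the precision. Figures were drawn with matplotlib 3.10.9 under Python 3.11.15, and tables handled with pandas 2.3.3.

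The genes followed, the 11 related and marker lists (97 genes, 80 measured, 74 tested) and the tests were chosen with earlier results of these data known. Named genes were the 8 largest rises and 8 largest falls between fractions, all called genes of other comparisons, the immunosubunits, their counterparts and the activators, and up to 4 called genes per related list. A list of 4 sex-linked genes set 3 animals apart (waking 3, waking 5 and sleep deprived 11); between fractions 1 of the 4 was higher and 1 lower. Promoters are RefSeq's, and protein sequences were not used here.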

Additional observations from a re-analysis of the deposited data

Results flagged for a closer look

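In 12 of 150 groups of 6 arrays (chance gives about 1 in 20), the highest or lowest array stood apart from the other 5 by more than the 95% limit of Dixon's test. In bound arrays these were Psmc3 in waking animal 5 (11.78 log2, nearest 11.60), Psmd4 in sleep animal 1 (11.41, nearest 11.79) and Psmb9 in waking animal 6 (5.04, nearest 5.27). They were also Psma7 in sleep deprived animal 6 (11.70, nearest 11.80), and Psmd5 and Psmb4 in sleep deprived animal 10 (9.85, nearest 10.13, and 12.03, nearest 12.23). In unbound arrays they were Psmd10 in sleep deprived animal 10 (9.72, nearest 9.52), Psmd9 in waking animal 5 (8.69, nearest 8.43), and Psmc5 and Psmb7 in waking animal 3 (10.64, nearest 10.94, and 11.11, nearest 11.41). Psme4 and Psmb5 stood apart in unbound sleep animal 4 (7.66, nearest 8.55, and 10.88, nearest 10.62).

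A state change that differed between the fractions, by limma on the per-animal differences of all 18 animals as deposited, was found for 3 genes. Psmd10 differed by −0.74 log2 in sleep deprivation against sleep and by −0.41 log2 in sleep deprivation against waking, Psmb9 by 1.07 log2 in sleep deprivation against sleep and Psme3ip1 by 0.57 log2 in waking against sleep.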

How the results depend on the processing

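Between the fractions, 31 to 42 genes were called under every setting, and the members' median stood 0.18 log2 above the median gene after quantile normalization over all arrays, 0.40 with a stricter filter and 0.36 with the mean of a gene's probe sets, against 0.52 as deposited. Directions reversed for Psmc5 (0.20), Psmd5 (0.21), Psme4 (0.26) and Psmb5 (0.62 log2) with arrays centred on all probe sets, for Psmb5 (0.28) centred on the median gene, and for Psmd9 (−0.17) and Psmd13 (−0.0076) with the mean of probe sets. Centring on the median gene was chosen after seeing the data. Other causes of these changes were not tested.

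Called genes changed as follows. The share of all genes called is not set beside these counts, which show only how far the calls moved with the setting. Bound waking against sleep gave 1 in some settings, and it was not the same gene throughout. It was Psmb4, lower, after quantile normalization over all arrays, and Psma7, lower, with the replicate number as a block. It was Psmb9, higher, without a filter, with the mean of probe sets and without the intensity trend. Bound sleep deprivation against sleep gave 1 centred on all probe sets, with the stricter filter, without the trend and with only the groups compared. It gave 4 after either quantile normalization and 5 with the mean of probe sets, of which Psmc4 and Psmd11 were higher. Unbound waking against sleep gave 2 centred on all probe sets (both higher) or with the stricter filter, and 1 after either quantile normalization, without the trend, without the 3 animals set apart and with only the groups compared. Unbound sleep deprivation against waking gave 1 under either centring and quantile normalization within fractions. It gave 2 after quantile normalization over all arrays, without the trend or without the 3 animals, and 12 without a filter. After quantile normalization over all arrays, 1 of the 2 was Psma3, which was lower (−0.19 log2). Unbound sleep deprivation against sleep gave 1 with the stricter filter. The fraction difference of waking against sleep gave 0 centred on the median gene, after quantile normalization over all arrays, with the stricter filter and without the trend, and 2 with the mean of probe sets. It gave 1 centred on all probe sets and after quantile normalization within fractions, but there Psme3ip1 lost its call and Psmd10 was called lower (−0.43 and −0.41 log2). That of sleep deprivation against sleep gave 1 with the stricter filter and 3 without the 3 animals. Psmg2 was called lower there (−0.99 log2, limma adjusted p = 0.0234). That of sleep deprivation against waking gave 0 under either centring, either quantile normalization, the stricter filter, no trend, without the 3 animals and with no replicate block, and 2 without a filter.

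Waking and sleep animals share only replicate numbers in the labels. Same-numbered arrays correlated by −0.0009 to 0.0868 in bound (4 of 6 best with their own number) and −0.0050 to 0.100 in unbound arrays (3 of 6), and with that number as a replicate block 1 bound and 0 unbound genes were called. Without the animal block, the fraction difference of Psmd10 between sleep deprivation and waking was not called, and no other call of the fraction differences named here changed. Of the named genes' values over all alternatives, 1028 kept their call or lack of one, 93 lost the call, 4 gained it and 7 were counted as reversed. Genes without a call could change sign and still count among the 1028. The fraction difference of Psmb8 between sleep deprivation and sleep, for example, ranged from −0.09 to 0.06 log2. Dim genes such as Psmb9 and Psmb8 limit what can be resolved.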
